A study of Mus musculus with 4 samples.

Results

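The genes of the ID proteins, the E proteins and the related repressor Bhlhe40 were examined in mouse T helper 17 (Th17) cells, the CD4 lineage named for its cytokine IL-17. The set held 10 genes of the 50600 in the gene annotation: Id1, Id2, Id3 and Id4 for the ID proteins, Tcf3, Tcf4 and Tcf12 for the E proteins, the repressors Bhlhe40 and Bhlhe41, and Ascl2. They were chosen by symbol, and all 10 were found. RNA was sequenced in 4 libraries, each labelled as primary Th17 cells from C57BL/6NJ mice, with a linked protocol whose title names CD4 T cell differentiation. No treatment, genotype or other group was labelled, and age and sex were not given, so each comparison below sets genes or libraries of this group side by side. Numbered as biological replicates 1 to 4, the libraries have 1 donor label in common. The labels do not say which libraries came from separate animals or cultures, so p-values measure only the spread between these libraries. The levels of Xist and Eif2s3y given below show that replicates 1 and 2 did not share their source with replicates 3 and 4.

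ID and E proteins belong to the helix-loop-helix family. E proteins carry a basic region and bind DNA at E-boxes, short sites with the letters CANNTG, as dimers with each other or with tissue-restricted partners. ID proteins have the helix-loop-helix but no basic region, so a dimer of an ID and an E protein cannot bind DNA. In T cells this balance is known for its part in thymic checkpoints, where E proteins hold cells back and signals from the antigen receptor induce Id3, and later in the choice between effector, follicular and memory fates. Bhlhe40 and Bhlhe41 form a different branch of the family: they bind E-boxes on their own and repress clock genes. In mouse T cells Bhlhe40 is known to favour production of GM-CSF and to hold down Il10.

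Id2, the most abundant of the ID genes, lies on chromosome 12 (mm10, minus strand, 25093801 to 25096092), and Id3 spans 136143497 to 136145755 on the plus strand of chromosome 4. Promoter windows from RefSeq on GRCm38.p6 were read for 7 of the 10 genes, in 9 windows. The 250 bases before the annotated start are given below for 4 of them, to set Id2 and the ID gene that varied between libraries beside an ID gene and a repressor gene that were nearly without counts. Capitals mark every E-box, CANNTG, which reads the same on both strands.
Id2: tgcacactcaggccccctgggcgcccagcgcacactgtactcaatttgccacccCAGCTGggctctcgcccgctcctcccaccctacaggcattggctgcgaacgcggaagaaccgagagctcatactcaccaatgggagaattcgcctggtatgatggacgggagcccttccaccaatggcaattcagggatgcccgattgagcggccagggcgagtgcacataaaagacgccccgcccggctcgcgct
Id3: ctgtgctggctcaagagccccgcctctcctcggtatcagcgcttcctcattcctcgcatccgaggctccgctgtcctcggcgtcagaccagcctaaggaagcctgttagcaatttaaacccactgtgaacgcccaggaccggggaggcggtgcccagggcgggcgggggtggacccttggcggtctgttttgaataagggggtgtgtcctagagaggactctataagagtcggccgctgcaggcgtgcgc
Id4: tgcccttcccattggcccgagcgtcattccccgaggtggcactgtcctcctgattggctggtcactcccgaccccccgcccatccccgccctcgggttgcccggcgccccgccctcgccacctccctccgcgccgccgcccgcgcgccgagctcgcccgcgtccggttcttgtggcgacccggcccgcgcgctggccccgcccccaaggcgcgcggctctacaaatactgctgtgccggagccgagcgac
Bhlhe41: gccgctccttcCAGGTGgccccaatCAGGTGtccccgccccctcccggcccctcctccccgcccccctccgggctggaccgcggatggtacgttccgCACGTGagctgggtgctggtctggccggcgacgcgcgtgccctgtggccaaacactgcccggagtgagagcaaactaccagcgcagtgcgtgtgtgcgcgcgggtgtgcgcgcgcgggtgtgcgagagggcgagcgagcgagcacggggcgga
These windows lie at chr12:25096093-25096342 on the minus strand for Id2, chr4:136143572-136143821 on the plus strand for Id3, chr13:48260866-48261115 on the plus strand for Id4 and chr6:145865421-145865670 on the minus strand for Bhlhe41. They end at the RefSeq start, which need not be the outer end of the gene as counted: the Id3 window lies inside the counted gene, the Bhlhe41 window overlaps it, and the Id4 window lies upstream of it with a gap. An E-box was present in 6 of the 9 windows read, and in 66.2% of all 32851 promoter windows of that length. The Id2 window held 1, CAGCTG at position -196 from the start, and CAGCTG was present in 13% of all windows. The Id3 and Id4 windows held none, which says only that these letters are not in these windows. The Bhlhe41 window held 3, of which 2 were CAGGTG (17.2% of all windows on either strand) at -239 and -225 and 1 was CACGTG (6.02% of all windows) at -153, the form of E-box that class VI repressors such as Bhlhe40 prefer. The presence of these letters is a description of the windows and was not related to binding or to the levels given below.

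Library totals ranged from 28555677 to 58104663 counted fragments. All 8 Th17 markers examined were at 1 TPM or more in every library (TPM, fragments per base of exon scaled to the same sum in every library). Of 39 markers in 7 lists of other cell types (B cells, macrophages and monocytes, conventional and plasmacytoid dendritic cells, CD8 T and NK cells, endothelial and stromal cells), 37 were under 1 TPM in every library and 12 had no count at all, among them Ms4a1, Lyz2, Clec9a, Siglech, Ncr1, Cdh5 and Kdr. The exceptions were Pacsin1 and the endothelial marker Pecam1 (6.27 ± 0.304 TPM, SD, n = 4), and the summed level of a list lay between 0.141 and 6.58 TPM. The libraries have 1 donor label in common but differed in genes of the sex chromosomes. The X-linked RNA Xist was at 132 and 131 TPM in replicates 1 and 2, against 0.329 and 0.496 TPM in replicates 3 and 4, while the Y-linked Eif2s3y was at 0.282 and 0.239 TPM in replicates 1 and 2, against 65.5 and 58.4 TPM in replicates 3 and 4. In 0 of the 7 members with enough counts for a test did the levels of replicates 1 and 2 lie apart from those of replicates 3 and 4, against 37.3% of the 12434 genes tested.

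The first question was how high each gene stood. In RNA from whole cultures, fewer cells of a type and less RNA per cell cannot be told apart. Of the 10 genes, 6 were at 1 TPM or more in every library, which held for 47.0% of 21764 protein-coding genes, whose median mean level was 0.575 TPM. Tcf4 lay at about that threshold, and Id4, Bhlhe41 and Ascl2 were at or near 0. By mean TPM with the exon length in the files the order was Id2, Bhlhe40, Tcf3, Id3, Id1, Tcf12 and Tcf4, and from Id2 to Tcf4 each gene's lowest library lay above the highest library of the next gene. Among Ascl2, Id4 and Bhlhe41 the ranges of neighbours overlapped.

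**Figure D1:**
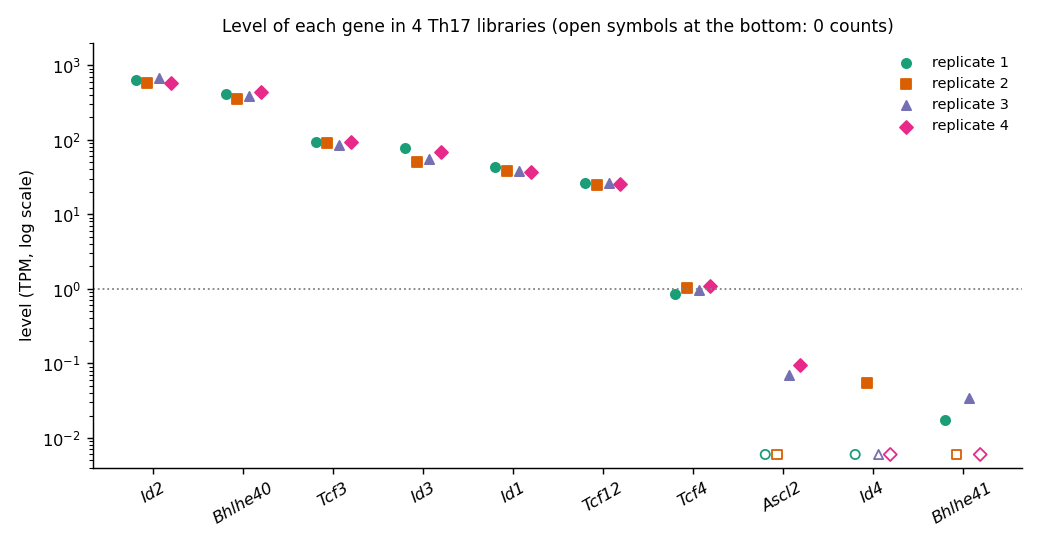
Level in TPM, on a log axis, of the 10 genes in each of the 4 Th17 libraries, with 1 symbol per replicate, open symbols at the bottom for 0 counts and a dotted line at 1 TPM. Id2 and Bhlhe40 lay at 348 TPM or more, Tcf3, Id3, Id1 and Tcf12 at 93.2 TPM or less and above Tcf4, and the last 3 genes under 0.1 TPM.

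Among the ID genes, Id2, which is known from mouse work to support effector T cells, was at 623, 576, 663 and 571 TPM in replicates 1 to 4, or 608 ± 43.2 TPM (SD, n = 4). That placed it at rank 225 among the protein-coding genes. Id3, the ID gene induced by signals from the antigen receptor, was at 76.7, 50.7, 55.2 and 68.4 TPM, or 62.7 ± 11.96 TPM (SD, n = 4). Replicates 1 and 4 were high and replicates 2 and 3 low, with no other gene of the set showing as wide a relative range among those at 1 TPM or more. Id1, a classic target of bone morphogenetic protein (BMP) signals, was at 43.5, 37.9, 38.0 and 37.1 TPM, with replicate 1 above the other 3. Its gene lies on the plus strand of chromosome 2 from 152736251 to 152737410. Id4, best known from the nervous system, had 0, 1, 0 and 0 counts. For Id4 the 3 counts that a reading of 0 leaves possible corresponded to between 0.103 and 0.212 TPM in single libraries.

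Id2 made up 83.8%, 86.7%, 87.7% and 84.4% of the summed TPM of the ID genes in replicates 1 to 4. Id3 made up between 7.30% and 10.3% and Id1 between 5.02% and 5.86%. The log2 ratio of Id2 to Id3 was 3.29 ± 0.29 (SD, n = 4), above 0 in every library.

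Among the E protein genes, Tcf3, which encodes the E2A proteins E12 and E47, was at 92.5, 90.5, 84.2 and 93.2 TPM, lowest in replicate 3. Its gene lies on the minus strand of chromosome 10 from 80409514 to 80433647. Tcf12, which encodes HEB and lies on the minus strand of chromosome 9 from 71842688 to 72111871, was at 25.97, 25.003, 26.1 and 25.3 TPM. That was the narrowest relative range of the 7 genes with enough counts to test. Tcf4, which encodes E2-2 and is best known as the E protein of plasmacytoid dendritic cells, was at 0.856, 1.04, 0.975 and 1.10 TPM from 200, 314, 467 and 390 counts, lowest in replicate 1. The plasmacytoid markers Siglech, Klk1 and Clec4g had no count, and Pacsin1 was at 2.95 ± 0.343 TPM (SD, n = 4). The 6 plasmacytoid markers summed to between 2.73 and 3.46 TPM, and their part in the Tcf4 level was not tested. Tcf3 made up between 75.6% and 77.9% of the summed E protein TPM, Tcf12 between 21.1% and 23.5% and Tcf4 between 0.717% and 0.920%. The log2 ratio of Tcf12 to Tcf3 was -1.81 ± 0.09, below 0 in 4 of 4 libraries.

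Set against each other within each library, the summed ID genes were at 743, 665, 756 and 676 TPM and the summed E protein genes at 119, 117, 111 and 120 TPM. The ratio was 6.23, 5.70, 6.79 and 5.65 in replicates 1 to 4, highest in replicate 3, where Id2 was highest and Tcf3 lowest. As a log2 ratio it was 2.60 ± 0.12. These are ratios of RNA, and protein was not measured.

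**Figure D2:**
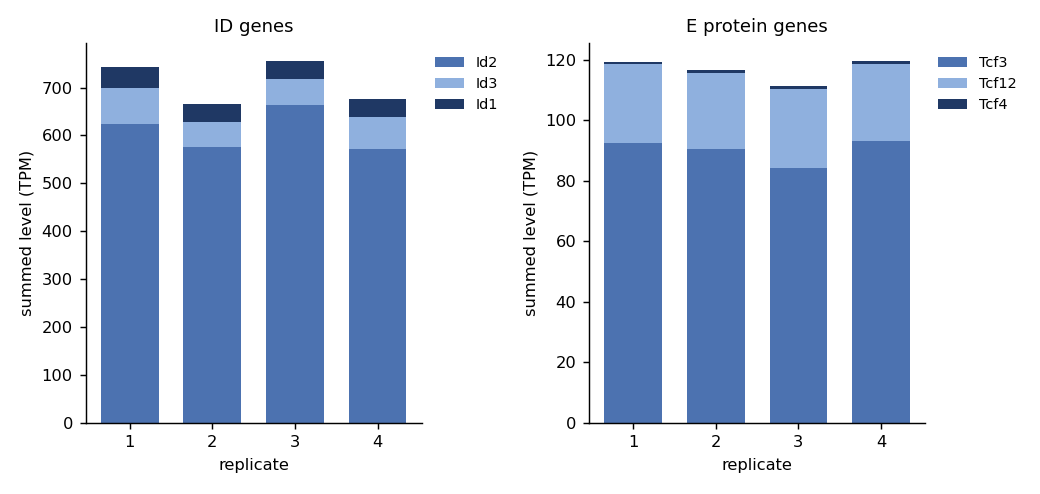
Summed TPM of the ID genes (left) and of the E protein genes (right) in each replicate, stacked by gene. The vertical scales differ: the ID sums lay between 665 and 756 TPM and the E protein sums between 111 and 120 TPM, and Id2 and Tcf3 made up most of each bar. Id4 is left out as it cannot be seen at this scale.

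Bhlhe40 was the second highest gene of the set by TPM with the exon length in the files, at 415, 348, 389 and 429 TPM in replicates 1 to 4, or 395 ± 35.5 TPM (SD, n = 4) and rank 385 among protein-coding genes. It was lowest in replicate 2 and highest in replicate 4. Its gene lies on the plus strand of chromosome 6 from 108660629 to 108666925. Its close relative Bhlhe41, on the minus strand of the same chromosome from 145858243 to 145865558, had 1, 0, 4 and 0 counts. Of 100-base windows of Bhlhe41 transcripts, 13.4% recurred in another gene's transcripts, read in either direction. Of its exon bases, 19.0% were shared with a gene on the other strand and 0% with a gene on the same strand. What this means for its count was not tested. Per base of exon and over all 4 libraries together, Bhlhe40 was 26557-fold above Bhlhe41, with an exact binomial 95% interval of 11379.5 to 81792 that covers counting error only. With Bhlhe41 counts under 3 set to 3 in each library, Bhlhe40 was between 7930.2-fold and 12450-fold higher. These values are not lower limits, because a reading of 1 or 4 counts leaves more than 3 possible. Ascl2, which starts the follicular helper programme in mouse T cells, had 0, 0, 2 and 2 counts, below the floor of 3 counts in each library. That floor of 3 counts was between 0.106 and 0.217 TPM for Ascl2.

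Id2 lay above Bhlhe40 in each library, and the log2 ratio was 0.62 ± 0.16 (SD, n = 4). Of the 5 pairs compared (the summed ID over the summed E protein genes, Id2 over Id3, Tcf12 over Tcf3, Bhlhe40 over Bhlhe41 and Id2 over Bhlhe40), each kept its direction in 4 of 4 libraries. Each had an exact two-sided sign-flip p of 0.125, raw and adjusted over the 5 pairs, which is the smallest that 4 libraries allow.

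The length used for each gene moved these levels. The files give 27382 bases of exon for Tcf4 and 15529 for Tcf12, the union of all annotated transcripts, against 8577 and 6299 bases for the longest single transcript of GENCODE M21. With the length of the longest transcript, but no more than the counted exons (a length chosen after seeing the data), Tcf4 was at 2.45 ± 0.257 TPM and Tcf12 at 48.8 ± 1.05 TPM (SD, n = 4), so Tcf12 stood above Id1 at 30.2 ± 2.28 TPM. Under that length Id2 at 470.0 ± 33.5 TPM and Bhlhe40 at 462 ± 41.5 TPM differed by less than their spread, and the ratio of summed ID to summed E protein genes was 3.88 ± 0.304. With the longest transcript uncapped, Bhlhe40 stood above Id2, with a log2 ratio of Id2 to Bhlhe40 of -0.61. For Id2 that transcript has 1969 bases against 1270 counted, so it includes bases that were not counted. In CPM, counts scaled to the library total with no length at all, Bhlhe40 also exceeded Id2 (log2 ratio -1.27), Tcf12 exceeded Tcf3 (log2 ratio 0.13) and the ID to E protein ratio was 1.18 ± 0.082. Id2 above Id3, Bhlhe40 above Bhlhe41 and the summed ID above the summed E protein genes kept their direction under each of these lengths.

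**Figure D3:**
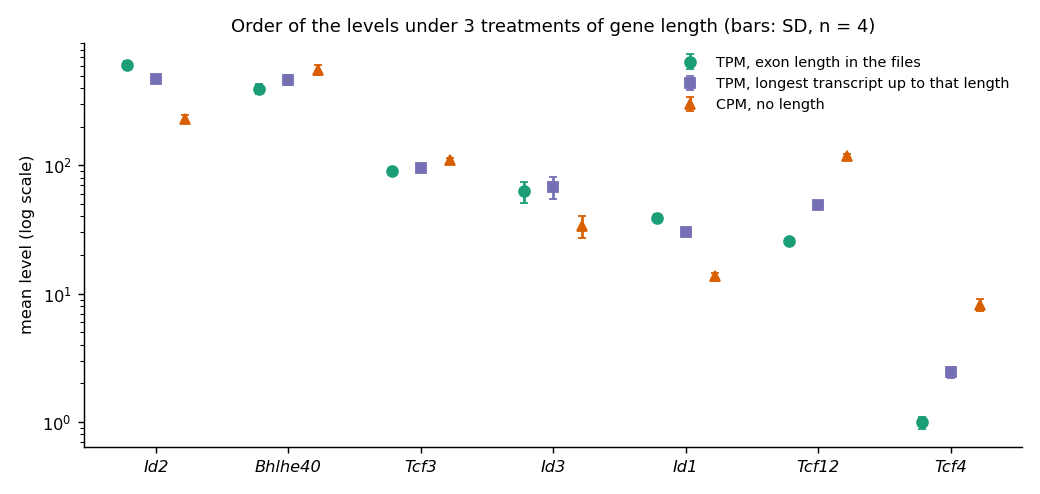
Mean level on a log axis of the 7 genes with enough counts, as TPM with the exon length in the files, as TPM with the longest transcript capped at that length, and as CPM, with bars for the SD (n = 4). Tcf12 had a mean of 25.6 TPM, 48.8 TPM and 119 CPM under these scales and Tcf4 of 0.992 TPM, 2.45 TPM and 8.15 CPM, while Id2 was at 608 TPM, 470.0 TPM and 232 CPM.

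The second question was how far these genes differed between libraries. Of the 7 members that passed edgeR's filter on low counts, Id3 alone varied beyond the spread that the fit gave to genes of its level, while Id2, Bhlhe40, Tcf3, Tcf12, Id1 and Tcf4 did not pass. In total 1 of 7 members was called by the negative binomial deviance at edgeR's trended dispersion, at an adjusted p under 0.05 over all genes tested, against 0.523% of the 12434 genes tested (65 genes). Id4, Bhlhe41 and Ascl2 did not pass the filter. The coefficient of variation (SD over mean) of TPM was 19.1% for Id3, 10.5% for Tcf4, 8.99% for Bhlhe40, 7.58% for Id1, 7.10% for Id2, 4.53% for Tcf3 and 2.13% for Tcf12, and its median over all genes tested was 4.92%.

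Id3 had 1172, 1005, 1728 and 1585 counts in replicates 1 to 4, or 41.0, 27.2, 29.7 and 36.9 CPM (counts scaled to the library total). The highest library exceeded the lowest by 1.499-fold in CPM, against a median of 1.11-fold over all genes tested, and 1462 of them had a ratio at least as large. The adjusted p was 0.00391 by the negative binomial deviance in edgeR. The call depended on both high libraries: the adjusted p was 0.0884 without replicate 1 and 0.0631 without replicate 4, against 0.0354 without replicate 2 and 0.0452 without replicate 3, each over the 3 remaining libraries in edgeR. Its order, with replicates 1 and 4 above replicates 2 and 3, was not that of Xist and Eif2s3y. Of the 65 genes called, 10 lay on the X or Y chromosome and 6 on the mitochondrial genome. The share of such genes among all genes tested was not counted.

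**Figure D4:**
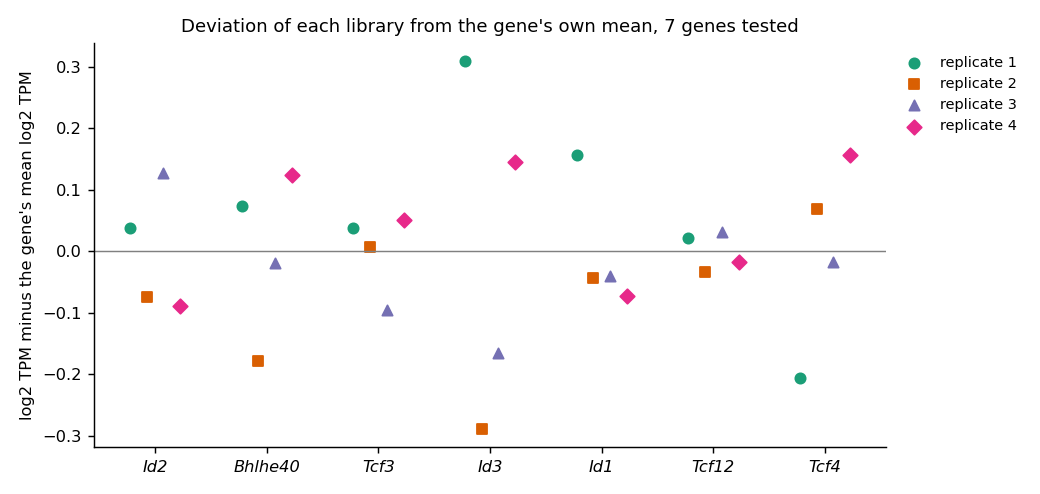
Deviation of log2 TPM from the gene's own mean log2 TPM, for the 7 genes tested, with 1 symbol per replicate. Id3 had the widest range, with replicates 1 and 4 above its mean and replicates 2 and 3 below it, and Tcf12 the narrowest.

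The remaining members were not called by edgeR's deviance, with unadjusted p of 0.0956 for Bhlhe40, 0.123 for Id2, 0.209 for Tcf4, 0.215 for Tcf3, 0.495 for Id1 and 0.786 for Tcf12. With the dispersion trend of DESeq2 in place of edgeR's, Bhlhe40 was called as well, at an adjusted p of 0.000647, and 2 of 7 members were called against 0.555% of the genes. Against counting noise alone (Poisson deviance, Benjamini-Hochberg adjusted), 5 of 7 members were called, against 36.6% of the genes tested. A Poisson call says only that the spread exceeded counting error, and genes with more counts pass it at a smaller relative spread. The genes tested were not matched by count to the members or to any list below. The members called were Id2, Id3, Tcf3, Tcf4 and Bhlhe40. Of these, Tcf4 missed the threshold without replicate 1 (adjusted p = 0.347) and without replicate 4 (0.178), and Tcf3 without replicate 3 (0.362).

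**Figure D5:**
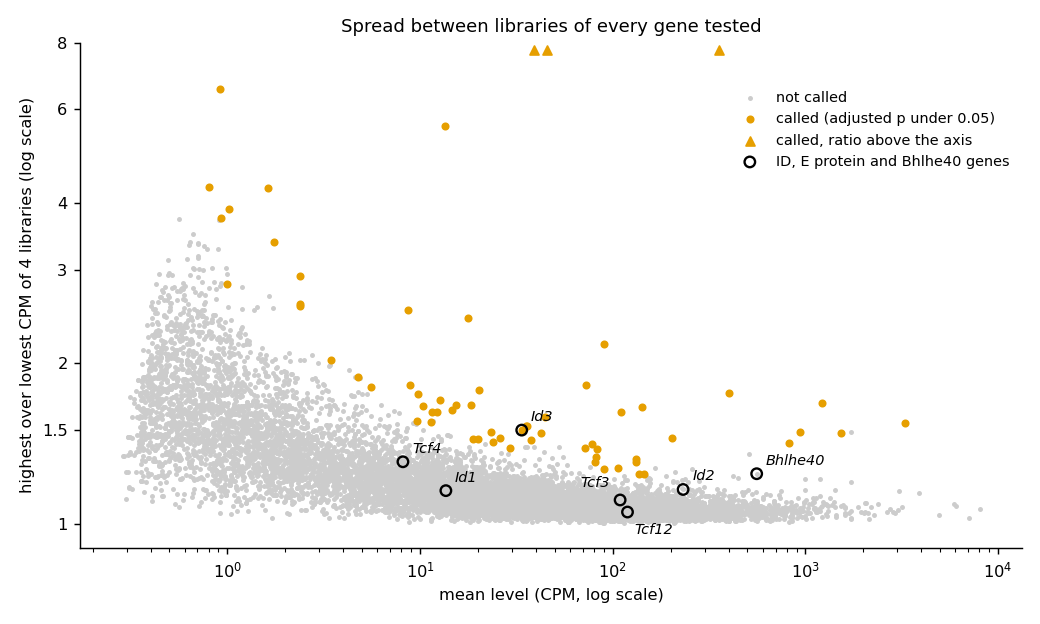
Highest over lowest CPM of the 4 libraries against mean CPM, both on log axes, for each of the 12434 genes tested, with called genes in orange, ratios above the axis as triangles and the 7 members circled. The ratio used edgeR's CPM with TMM scaling and a prior count of 0.5, and the mean used CPM without them. Id3, at 1.499, was the member called, and the other 6 were not called.

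The third question was what other genes of these pathways did in the same libraries. In 9 lists there were 136 genes, of which 68 were at 1 TPM or more in every library and 73 were tested. By edgeR's negative binomial deviance 0 of the 73 were called, against 0.523% of all genes tested. An unadjusted p under 0.05 was given by that deviance for 8 of the 73, against 557 of all 12434 genes tested (4.48%). DESeq2's dispersion trend called 1 of the 73, against 69 of all 12434 genes tested (0.555%). The Poisson deviance called 37 of the 73, against 4550 of all 12434 genes tested (36.6%). The median mean level was 0 TPM for tissue-restricted partners, 11.7 TPM for E protein cofactors and 33.8 TPM for E protein targets. It was 11.9 TPM for genes of the BMP, TGF-beta and EGR pathways and 96.1 TPM for the Bhlhe40 circuit. For clock genes it was 8.13 TPM and for Ascl2 targets 187 TPM, against 0.575 TPM for all protein-coding genes.

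Of 46 genes of tissue-restricted partners of E proteins, 33 had no count in any library, among them the muscle factor Myod1 and the neural factor Neurod1, and only Tal2, a relative of the blood factor Tal1, reached 1 TPM in every library, at 1.10, 1.03, 1.56 and 1.33 TPM. The next 2 by mean level were Msc at 0.603 ± 0.193 TPM and Bhlha15 at 0.513 ± 0.191 TPM (SD, n = 4). Tcf3 was at 90.1 ± 4.08 TPM beside partner genes whose summed level was between 3.05 and 4.07 TPM. Of 9 cofactor genes of E proteins, 5 were at 1 TPM or more in every library. Ldb1, an adaptor of complexes with LIM-only proteins, was at 201 ± 2.46 TPM, the acetyltransferase Ep300 at 32.5 ± 0.833 TPM and Lmo4 at 20.7 ± 1.51 TPM, while the LIM-only gene Lmo2 had between 3 and 6 counts in each library and the corepressor gene Runx1t1 had none.

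Of 16 genes listed as E protein targets in lymphocytes, whatever the direction, 10 were at 1 TPM or more in every library. The cell cycle inhibitor Cdkn1a was at 418 ± 27.8 TPM and Cd4 at 346 ± 16.1 TPM (SD, n = 4). Of genes of antigen receptor assembly and of the pre-antigen receptors, Dntt, which adds bases at receptor joints, was at 2.31, 2.12, 1.80 and 1.49 TPM and Vpreb1 at 0.679 ± 0.165 TPM (SD, n = 4). Rag2 had no count, Ptcra and Igll1 had 2 counts and 1 count, in replicate 4 alone, and Rag1 had between 2 and 15 counts in each library. These 6 genes were named after their values were seen, as were Myod1, Neurod1, Lmo2 and Runx1t1 above.

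Among genes that act upstream of the ID genes, ligands, receptors and early factors stood at different levels. Of 24 genes of the BMP, TGF-beta and EGR pathways, 17 were at 1 TPM or more in every library, led by the ligand gene Tgfb1 at 144 ± 6.76 TPM, the early factor Egr2 at 94.0 ± 2.46 TPM and the receptor gene Tgfbr1 at 84.9 ± 9.17 TPM (SD, n = 4). Of the 4 BMP ligand genes in the list, Bmp7 had 12, 6, 39 and 16 counts, Bmp2 had 1 count in all, and Bmp4 and Bmp6 had none. All 4 were named after their values were seen. Egr1, which encodes an early factor known to act upstream of Id3 in thymocytes, was at 54.7, 47.9, 51.2 and 52.6 TPM, also named after its values were seen. It was not called by edgeR's deviance (adjusted p = 1.00). Tgfbr1, at 93.1, 85.4, 89.1 and 71.98 TPM, was lowest in replicate 4 and did not pass in edgeR (adjusted p = 0.0586).

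Around Bhlhe40, 9 of 10 genes of its cytokine circuit were at 1 TPM or more in every library. After the IL-17 genes, Il2 was the highest, at 1407 ± 84.6 TPM, and Il10, which Bhlhe40 is known to repress, was at 132, 139, 121 and 112 TPM, against 4.83, 4.97, 5.43 and 6.18 TPM for Csf2, which encodes GM-CSF. Neither was called (adjusted p = 1.00 for both by edgeR's deviance), and both were named after their values were seen. Of the 12 clock genes known as targets or partners, 11 were at 1 TPM or more in every library, among them Cry1 at 71.1 ± 0.9297 TPM, Per1 at 17.7 ± 0.818 TPM and Nr1d1 at 15.8 ± 1.08 TPM (SD, n = 4). Around Ascl2, all 4 genes of its T cell list were expressed. That list does not separate genes that Ascl2 induces from genes that it represses. The IL-2 receptor chain Il2rb was at 967 ± 41.1 TPM, Ccr7 at 252 ± 21.04 TPM and Selplg at 122 ± 3.96 TPM. Cxcr5, the follicular homing receptor that Ascl2 is known to induce, was at 41.5 ± 4.00 TPM and named after its values were seen. The Ascl2 level was under its floor in every library.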

How the data were processed

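RNA was sequenced from 4 libraries of mouse Th17 cells. Per the file headers, the authors counted fragments per gene with featureCounts 1.4.6-p4 (paired, both ends mapped, reverse-stranded option 2) on GENCODE M13, and the labels name mm10. The deposited values are raw counts with the exon length of each gene. The recorded command sets no option to count fragments that map to several places or overlap several genes. No source used here states the aligner, and the alignment names carry 48 hours. Total RNA-seq is the labelled assay, but the title of the linked protocol is for poly(A) libraries.

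Symbols and transcript lengths came from GENCODE M21, matched by gene ID for 50376 of 50600 genes, and promoter windows from RefSeq on GRCm38.p6. TPM was computed here from counts and exon length, and pairs used log2 with a pseudocount of 0.1. Of 100-base transcript windows of Id1, Id2, Id3, Ascl2 and the E protein genes, 0% recurred in another gene's transcript. With edgeR 4.0.16 in R 4.3.3 (TMM factors 0.997 to 1.01, default filter), each gene's deviance around 1 common mean was tested with 3 degrees of freedom, with Benjamini-Hochberg adjustment. The quasi-likelihood test needs a contrast, which a single group lacks. On simulated data the fit found 24 of 50 genes changed 1.5-fold in 1 library and 45 of 50 changed 2-fold. It called 0 of 12234 unchanged genes. A member that was not called may therefore still differ between libraries by a small ratio. DESeq2 1.42.0 was an alternative. Members and lists were chosen with earlier results of these data known. Genes outside the set were named as the 3 highest of each list, any called gene, and the 3 protein-coding genes nearest in level to the leading gene of each group. One gene that this rule names is not reported here. Intervals and floors cover counting error only.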

Additional observations from a re-analysis of the deposited data

Results flagged for a closer look

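Of 42 values examined for a library far from the other 3, 3 stood out, and chance alone gives about 1 in 20. Id1 was at 43.5 TPM in replicate 1, against 37.1 to 38.0 TPM in the other 3, while edgeR's deviance did not call it. Id4 had its single count, 0.0544 TPM, in replicate 2; with 0 counts in the other 3 libraries it had to stand out, so this says nothing about the library. Ldb1, the adaptor gene of LIM-only complexes, was at 205 TPM in replicate 1, against 199.8 to 200.3 TPM in the other 3.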

How the results depend on the processing

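No paired analysis was possible because the 4 libraries form a single group. The number of members at 1 TPM or more in every library was 6, and 7 with CPM or with the longest transcript. Leaving out 1 replicate kept it at 6, and gave log2 ratios from 2.55 to 2.64 for summed ID over E protein genes, 3.20 to 3.38 for Id2 over Id3, -1.85 to -1.79 for Tcf12 over Tcf3, 11.69 to 11.87 for Bhlhe40 over Bhlhe41 and 0.57 to 0.69 for Id2 over Bhlhe40. Pairs turned with length: Tcf12 over Tcf3 was 0.13 in CPM, and Id2 over Bhlhe40 was -1.27 in CPM and -0.61 with the longest transcript. With that length capped, an alternative chosen after seeing the data, the mean of Id2 over Bhlhe40 was 0.03. Its direction then differed between libraries, with Bhlhe40 above Id2 in replicates 1 and 4. The ratio of Bhlhe40 to Bhlhe41 rests on 5 counts and moved with the pseudocount, to 8.61 at 1 and 14.37 at 0.01. The negative binomial count of 65 genes was 113 without a filter, 123 with a common dispersion, 43 at an adjusted p under 0.01 and between 32 and 49 without 1 replicate (35 without replicate 1, 32 without replicate 4); the cause was not tested. The Poisson count of 4550 was between 3186 and 3722 without 1 replicate and 216 when a 2-fold ratio was also asked, which no member reached. Id3 passed with DESeq2's size factors, either other filter and either other dispersion, with adjusted p from 0.000128 to 0.00454.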

Other observations

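ID proteins are short-lived, and the genes known to act on their turnover were all expressed: 7 of 7 were at 1 TPM or more in every library. Usp1, which encodes a deubiquitinase that stabilises ID proteins, was at 213 ± 4.77 TPM (SD, n = 4), the ubiquitin ligase gene Stub1 at 132 ± 1.60 TPM and the signalosome gene Cops5 at 119 ± 3.18 TPM. By edgeR's deviance 0 of the 7 were called, against 0.523% of all genes tested, and 0 had an unadjusted p under 0.05, against 4.48%. The Poisson deviance called 3 of the 7, against 36.6%. Of 9 Wnt target genes examined because Ascl2 is one in the gut, 5 were at 1 TPM or more in every library, led by Tcf7 at 317 ± 3.53 TPM, Lef1 at 53.7 ± 2.72 TPM and Znrf3 at 17.2 ± 0.932 TPM.

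The protein-coding genes nearest in level over the 4 libraries, by the root mean square difference of log2(TPM + 0.1), were Bsg (0.06), Mt2 (0.08) and Aqp3 (0.08) for Id2, Ankrd46 (0.01), Cenpx (0.03) and Osm (0.03) for Tcf3, and Lcp2 (0.07), Ccng1 (0.08) and Tmed9 (0.09) for Bhlhe40. Likeness over 4 libraries describes levels only.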
